A study of Rattus norvegicus with 6 samples.

Results

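Somatostatin (Sst) and its receptors Sstr1 to Sstr5 were examined in primary rat hippocampal neurons with raised or lowered cyclin Y (CCNY). The 6 genes were chosen by name as one ligand and receptor family, 6 of the 17066 genes in the deposited table, after the level of Sstr1 had been seen to be lower on CCNY knockdown in these same libraries. The neurons came from Sprague-Dawley embryos at embryonic day 18, were infected with lentivirus on day 5 or 6 in vitro and were harvested on day 14. The virus, made from the vector FUGW, carried EGFP alone (EGFP, the control), CCNY-WT-EGFP (CCNY-WT, overexpression) or CCNY-shRNA-EGFP (CCNY-shRNA, knockdown), and each group had 2 libraries. All 3 groups thus shared the vector and the fluorescent protein. The ubiquitin promoter of FUGW is not specific to neurons. The paper states neither expression from the virus by cell type nor the promoter of the shRNA. The paper describes no virus with a non-targeting shRNA. Effects of lower CCNY and of shRNA expression itself therefore cannot be told apart in the CCNY-shRNA group. The labels do not say whether the 2 libraries of a group came from separate cultures, so the spread between them may be technical.

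Somatostatin is a peptide that a class of GABAergic interneurons releases together with GABA. In the hippocampus these cells mostly contact the dendrites of pyramidal neurons. Its receptors couple to Gi/o proteins, which lower cyclic AMP, open GIRK potassium channels and reduce calcium entry at nerve terminals. By sequence and by their binding of synthetic analogs, Sstr1 and Sstr4 form one receptor group, and Sstr2, Sstr3 and Sstr5 the other.

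The Sst promoter is the textbook example of a gene switched on by cyclic AMP through the factor CREB, which binds the cyclic AMP response element TGACGTCA. RefSeq promoter windows in the rat build GRCr8, with 250 bases before and 50 bases after the annotated start, were found for all 6 genes. The promoters of Sst, of Sstr1 (the family member that differed most between the conditions) and of Sstr2 (the most abundant receptor transcript) are shown from 5′ to 3′, with capitals marking the full element or, where it is absent, its core CGTCA.

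Sst (chr11:90461296-90461595, plus strand): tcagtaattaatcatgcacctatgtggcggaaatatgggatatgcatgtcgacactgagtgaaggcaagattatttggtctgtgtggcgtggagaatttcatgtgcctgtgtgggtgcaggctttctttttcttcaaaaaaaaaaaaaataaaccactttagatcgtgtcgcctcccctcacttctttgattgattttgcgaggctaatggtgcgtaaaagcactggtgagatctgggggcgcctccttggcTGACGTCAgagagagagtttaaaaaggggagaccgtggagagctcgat
Sstr1 (chr6:81567233-81567532, plus strand): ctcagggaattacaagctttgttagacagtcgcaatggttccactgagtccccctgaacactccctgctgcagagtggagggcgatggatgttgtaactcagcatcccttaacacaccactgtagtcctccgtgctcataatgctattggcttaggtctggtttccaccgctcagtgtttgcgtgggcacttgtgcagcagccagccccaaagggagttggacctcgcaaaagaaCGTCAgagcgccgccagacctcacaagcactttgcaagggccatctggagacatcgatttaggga
Sstr2 (chr10:99163103-99163402, plus strand): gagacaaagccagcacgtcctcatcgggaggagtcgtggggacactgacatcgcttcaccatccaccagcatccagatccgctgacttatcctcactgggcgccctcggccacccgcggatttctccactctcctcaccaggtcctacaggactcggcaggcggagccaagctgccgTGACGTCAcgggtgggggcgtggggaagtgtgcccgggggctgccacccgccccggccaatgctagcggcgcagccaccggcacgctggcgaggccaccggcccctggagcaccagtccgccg

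The full element began at base 3 after the annotated start in Sst and at base -73 in Sstr2, and the core at base -15 in Sstr1. The annotated starts were not checked against measured transcription starts. These positions may therefore differ from distances to the start in use, and are not compared between the genes. The windows of Sstr3, Sstr4 and Sstr5 held neither. Of 33469 rat promoter windows of this length, 1.83% held TGACGTCA, which reads the same on both strands. The core, searched as CGTCA and as its reverse complement TGACG and also counted inside the full element, was in 21.2%. A match in these letters is a description and not a measured binding site.

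Levels are given in FPKM (fragments per kilobase of transcript, scaled to the mapped fragments of each library), which is per transcript length. On that basis levels of different genes are set side by side. Such comparisons rest on the transcript lengths of an annotation that is not given. The table holds no read counts, and the number of fragments behind each value is unknown. The steps between the lowest FPKM values put the depth of the libraries between 0.818 and 1.33 times that of EGFP replicate 1. Ccny, the targeted gene, had 43.1 and 42.3 FPKM under EGFP, 108 and 109 under CCNY-WT and 5.98 and 6.19 under CCNY-shRNA. Of 8 pan-neuronal markers all were expressed, with a summed level of 3972 to 4131 FPKM per library, led by Stmn2, Nefl and Tubb3. Astrocyte markers were also present, at 468 to 574 FPKM summed over 7 genes, whereas 7 of 8 microglial markers lay under 1 FPKM in every library and Aif1 and Cx3cr1 were listed at 0 in all.

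Sst was among the most abundant transcripts of these cultures. Its level was 1256 and 1311 FPKM under EGFP, 1228 and 1239 under CCNY-WT, and 1043 and 1158 under CCNY-shRNA. Across the 6 libraries it ranked between 23 and 41 of 17066 genes, above Npy (rank 181 to 224), a second peptide of many Sst interneurons, and Gad1 (rank 520 to 588), a GABA-synthesizing enzyme. The group means were 1283 ± 38.9 FPKM (SD, n = 2) under EGFP, 1234 ± 7.49 under CCNY-WT and 1101 ± 81.0 under CCNY-shRNA. The CCNY-shRNA libraries were the lowest and did not overlap with those of either other group.

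Transcripts of 4 of the 5 receptors were in the middle of the range of these cultures, between rank 3654 and 7736 of 17066 genes, and Sstr5 was listed at 0. Among the receptors, Sstr2 had the highest level in every library. It had 23.3 and 22.7 FPKM under EGFP, 22.8 and 28.3 under CCNY-WT, and 23.7 and 25.0 under CCNY-shRNA. The lower CCNY-WT library lay among the EGFP values, and CCNY-WT replicate 2 was the highest of all 6. Sstr4, a receptor abundant in the hippocampus, came next in every library, with 14.3 and 15.6 FPKM under EGFP and 14.9 and 15.0 under CCNY-WT. In CCNY-shRNA it was 11.7 in each library, below all 4 other values.

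Sstr1 had 10.2 and 11.7 FPKM under EGFP, 9.52 and 9.73 under CCNY-WT, and 5.93 and 6.32 under CCNY-shRNA. The 3 groups did not overlap, and the CCNY-shRNA values were far below the rest. Sstr3, the receptor found on the primary cilium of neurons, had 9.18 and 9.99 FPKM under EGFP, 9.34 and 9.50 under CCNY-WT, and 8.51 and 7.81 under CCNY-shRNA. Its CCNY-WT libraries lay within the EGFP range and its CCNY-shRNA libraries below it. Sstr1 and Sstr3 were close to each other under EGFP, at 11.0 ± 1.09 and 9.59 ± 0.572 FPKM (SD, n = 2), and under CCNY-WT, at 9.62 ± 0.145 and 9.42 ± 0.109. In CCNY-shRNA, Sstr1 (6.12 ± 0.273) was below Sstr3 (8.16 ± 0.496) in both libraries. Sstr5, best known from the pituitary and the pancreatic islets, was listed at 0 in all 6 libraries. It is the 1 gene of the 6 that did not reach 1 FPKM in 2 or more libraries, the limit set for testing. In this table an exact 0 can also be a failed estimate, since 2 of 76 ribosomal protein genes were listed at 0 in at least 1 library.

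**Figure D1:**
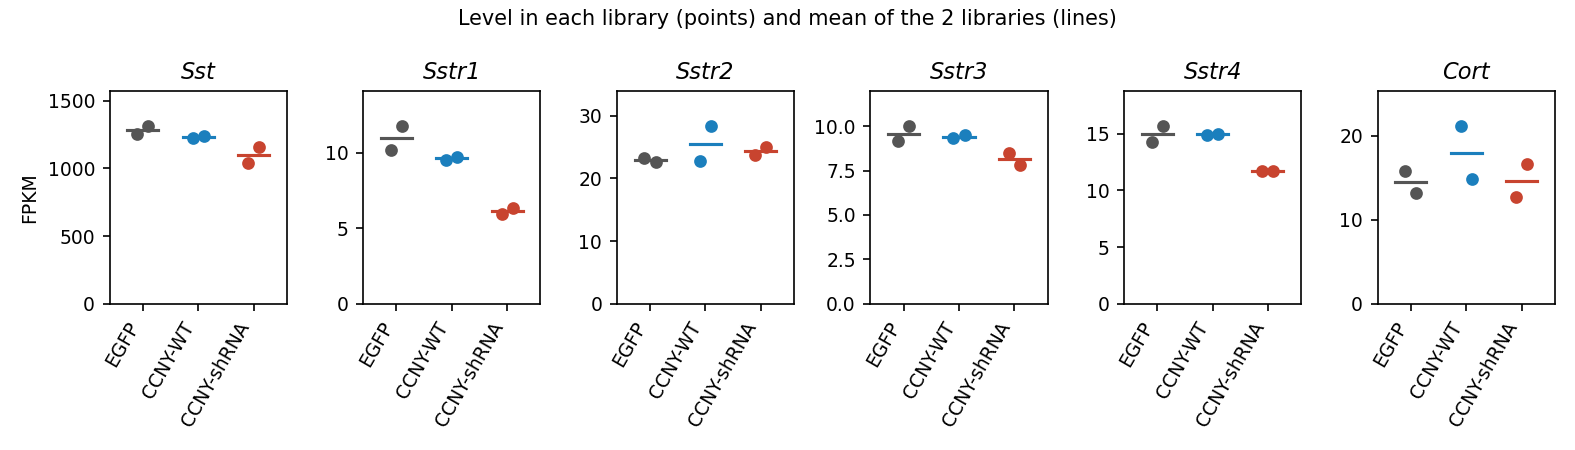
FPKM (linear axis from 0) of Sst, 4 of its receptors and the related peptide Cort under EGFP, CCNY-WT and CCNY-shRNA, with 1 point per library and a line at the mean of the 2 libraries. Sstr1 stands at 5.93 and 6.32 under CCNY-shRNA against 9.52 to 11.7 in the other 4 libraries, while Sstr2 overlaps between the groups.

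CCNY knockdown was the comparison in which Sstr1 had been noticed, so its values for the family are a description without a test. In mean log2 FPKM (values floored to 1), CCNY-shRNA differed from EGFP by -0.84 for Sstr1 (limma standard error 0.126), which is 0.559 times the EGFP level. Sstr4 differed by -0.35 (standard error 0.0972), Sstr3 by -0.23 (standard error 0.119) and Sst by -0.22 (standard error 0.0767). Sstr2 was the exception, at 0.08 (standard error 0.108). Fewer cells that express a gene and less of its RNA per cell cannot be told apart in such bulk samples.

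Both CCNY-shRNA libraries were below both EGFP libraries for 4 of the 5 measured genes (Sst, Sstr1, Sstr3 and Sstr4). Over all 10188 genes tested the share was 24.3%, which is given beside the count as the background of a contrast that chose the family. The median difference of the 5 genes was -0.23, against 0 over all genes tested. Of those 10188 genes, 43 had a more negative difference than Sstr1 and 1446 a more negative one than Sst. Among genes at 5 to 15 FPKM, the median replicate difference was 0.13 under EGFP and 0.15 under CCNY-shRNA on the log2 scale. Among genes at 500 to 2000 FPKM it was 0.05 and 0.13. Without CCNY-shRNA replicate 1 the difference of Sst was -0.15, and over all alternatives it lay between -0.30 and -0.15, so its size rested in part on that library. That of Sstr4 lay between -0.42 and -0.29 and that of Sstr3 between -0.29 and -0.17.

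CCNY-WT libraries had no part in choosing the family, although the EGFP libraries they are compared with did. None of the 5 genes with a measurable level passed limma's test under CCNY-WT (0 at a Benjamini-Hochberg adjusted p of 0.05 and 0 at an unadjusted p of 0.05), where 0.00982% of all genes tested passed the adjusted threshold and 6.83% the unadjusted one. The first share is Ccny alone. Sstr1 differed from EGFP by -0.19 (95% interval -0.48 to 0.11, limma adjusted p = 0.813), and Sstr2 by 0.14 (95% interval -0.10 to 0.39, limma adjusted p = 0.837). For Sst the difference was -0.06 (95% interval -0.23 to 0.12, limma adjusted p = 0.916). Sstr3 differed by -0.02 (95% interval -0.30 to 0.25, limma adjusted p = 0.981) and Sstr4 by 0.00 (95% interval -0.22 to 0.23, limma adjusted p = 1.0). Each of these intervals held 0, and true differences of any size within them remain compatible with the 2 libraries a group. Both CCNY-WT libraries were below both EGFP libraries for Sst and Sstr1, 2 of the 5 genes, against 19.0% of all genes tested.

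Set directly against CCNY-WT, CCNY-shRNA had the lower mean for all 5 genes. This comparison shares the knockdown libraries with the one that drew attention to Sstr1 and is likewise untested. The differences were -0.65 for Sstr1 (standard error 0.126), -0.35 for Sstr4 (standard error 0.0972), -0.21 for Sstr3 (standard error 0.119), -0.17 for Sst (standard error 0.0767) and -0.06 for Sstr2 (standard error 0.108). Both CCNY-shRNA libraries lay below both CCNY-WT libraries for 4 of the 5 genes (Sst, Sstr1, Sstr3 and Sstr4), where the background over all genes tested was 21.7%. With CCNY-WT replicate 2 left out, the Sstr2 difference was 0.09, so its direction rested on that library. Without CCNY-shRNA replicate 1 the difference of Sst was -0.09.

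**Figure D2:**
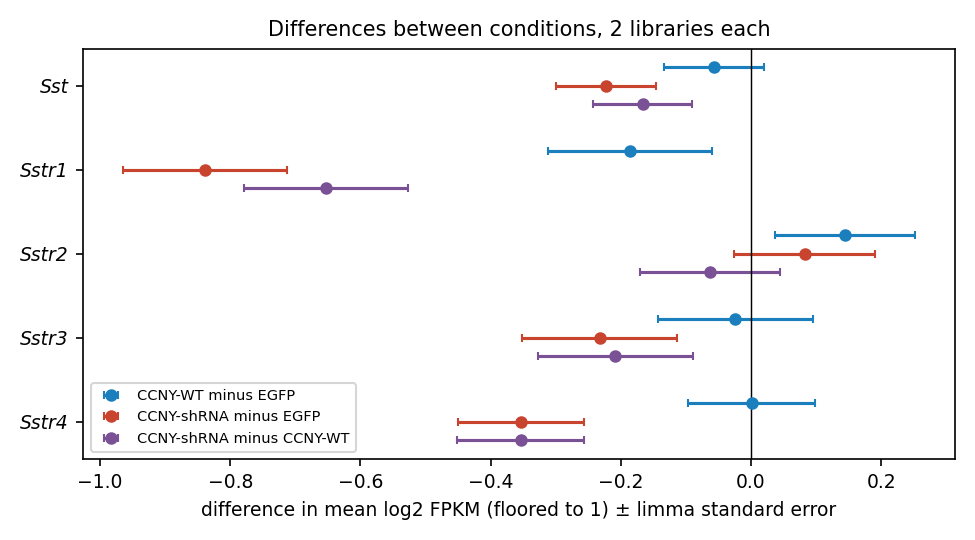
Difference in mean log2 FPKM (floored to 1) for Sst and 4 receptors in the 3 pairings of conditions, with bars of 1 limma standard error. Sstr1 lies at -0.84 and -0.65 in the pairings that hold CCNY-shRNA, and the CCNY-WT differences from EGFP lie between -0.19 and 0.14.

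The composition of the receptor transcripts is given as the share of each in their summed FPKM. Sstr1 made up 17.9% and 19.6% of the summed receptor FPKM under EGFP, 16.8% and 15.6% under CCNY-WT, and 11.9% and 12.4% under CCNY-shRNA. Its mean share under CCNY-shRNA was thus -6.56 percentage points from that under EGFP (SD of the 2 libraries 0.373 under CCNY-shRNA and 1.17 under EGFP), which is given without a test because the same values chose the family. Sstr2 took up 41.0% and 37.8% under EGFP, 40.3% and 45.3% under CCNY-WT, and 47.5% and 49.2% under CCNY-shRNA. Its own level differed by 0.08 in mean log2 FPKM between CCNY-shRNA and EGFP, while the summed receptor FPKM was lower under CCNY-shRNA. Sstr3 held between 15.2% and 17.1% in all 6 libraries with the groups overlapping. Sstr4 held 23.5% and 23.0% under CCNY-shRNA, below the other 4 libraries at 24.0% to 26.4%. With 2 libraries against 2, an exact permutation test cannot give a p below 0.333, and none was run.

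**Figure D3:**
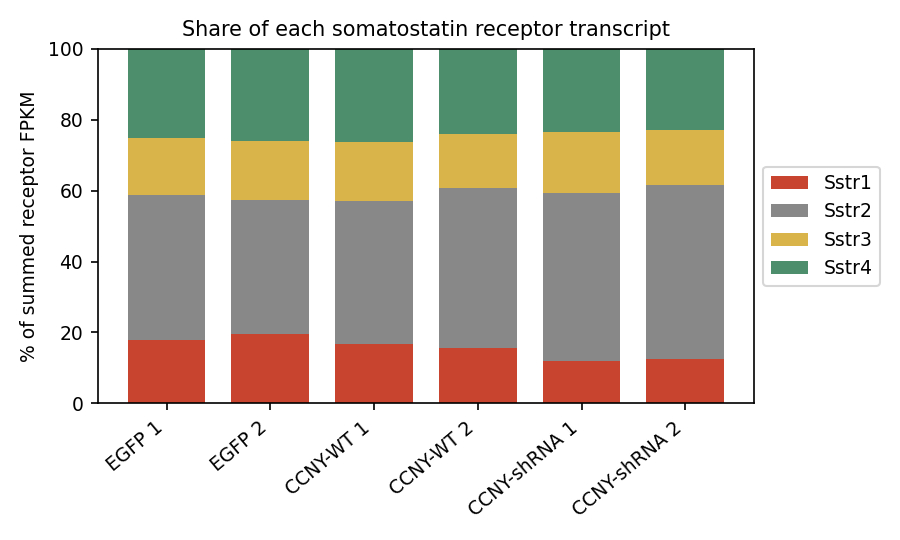
Share (%) of each receptor in the summed FPKM of Sstr1 to Sstr5, 1 bar per library with Sstr5 at 0. The Sstr1 segment is between 15.6% and 19.6% in the EGFP and CCNY-WT libraries and 11.9% and 12.4% under CCNY-shRNA.

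Summed by receptor group, a grouping applied after the values were seen, Sstr1 and Sstr4 together had 24.5 and 27.4 FPKM under EGFP, 24.4 and 24.7 under CCNY-WT, and 17.643 and 18.003 under CCNY-shRNA. The sum of Sstr2, Sstr3 and Sstr5 was 32.5 and 32.7 FPKM under EGFP, 32.2 and 37.8 under CCNY-WT, and 32.2 and 32.8 under CCNY-shRNA. The first group, which holds the Sstr1 values that chose the family, was lower in both CCNY-shRNA libraries than in any other library. The second overlapped between EGFP and CCNY-shRNA. Sstr2 made up most of the second sum, and Sstr3 within it was below the EGFP range under CCNY-shRNA, at 8.51 and 7.81 FPKM. All receptors together came to 57.01 and 60.05 FPKM under EGFP, 56.6 and 62.5 under CCNY-WT, and 49.9 and 50.8 under CCNY-shRNA.

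Ratios within a library do not depend on how libraries are scaled to each other. Those with Sstr1 still hold the values that chose the family, so they are a description and no separate evidence. The ratio of Sstr1 to Sstr2 was 0.437 and 0.518 under EGFP, 0.417 and 0.344 under CCNY-WT, and 0.250 and 0.252 under CCNY-shRNA. The CCNY-shRNA pair stood below the other 4 libraries, as it did for Sstr1 against Sstr4, where the ratio was 0.714 and 0.751 under EGFP, 0.638 and 0.649 under CCNY-WT, and 0.506 and 0.540 under CCNY-shRNA. Sstr4 was 0.612 and 0.690 times Sstr2 under EGFP and 0.494 and 0.467 times under CCNY-shRNA. The ratio of Sst to the summed receptors was 22.03 and 21.83 under EGFP, 21.7 and 19.8 under CCNY-WT, and 20.9 and 22.8 under CCNY-shRNA, so the groups overlapped. Sst was 6.64 and 6.96 times Gad1 under EGFP, 6.03 and 6.27 under CCNY-WT and 5.69 and 6.19 under CCNY-shRNA. Against Npy it was 3.11 and 2.91 under EGFP and 2.77 and 2.71 under CCNY-shRNA. Against Slc32a1, the vesicular GABA transporter, the ratio was 10.05 and 9.62 under EGFP and 8.65 and 9.84 under CCNY-shRNA, with overlap.

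The pattern of Sstr1 over the 6 libraries was followed most closely, among 9282 genes tested with a mean of at least 2 FPKM, by Slc22a5 (Pearson r = 0.998), a carnitine transporter, and Tmem185a (r = 0.997). Next came Cacna2d3 (r = 0.996), an auxiliary calcium channel subunit, and Cd24 (r = 0.996), a surface glycoprotein. Slc22a5 had 5.31 and 5.62 FPKM under EGFP and 4.40 and 4.50 under CCNY-shRNA, a smaller step than that of Sstr1. Cacna2d3 had 66.7 and 72.0 FPKM under EGFP, 62.4 and 63.4 under CCNY-WT, and 48.0 and 48.2 under CCNY-shRNA. These r values, over 6 points that share their libraries and fall into 3 conditions, are a description. Within the family, Sstr1 had r = 0.973 with Sstr4, 0.938 with Sst, 0.907 with Sstr3 and -0.14 with Sstr2. The Sstr1 values chose the family, and how many of the 9282 genes reached such an r was not counted. Genes that followed Sst closely included Lancl3 (r = 0.990), Ctsl (r = 0.987), a lysosomal protease, Fam73b (r = 0.986) and Hsd11b1 (r = 0.984), which regenerates active glucocorticoid. Hsd11b1 had 25.1 and 28.7 FPKM under EGFP, 26.4 and 24.9 under CCNY-WT, and 16.8 and 21.5 under CCNY-shRNA.

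Cort, which encodes cortistatin, a peptide that binds the same receptors, had 15.9 and 13.2 FPKM under EGFP, 21.1 and 14.8 under CCNY-WT, and 12.7 and 16.6 under CCNY-shRNA. Its replicates differed as much as its groups, which overlapped throughout. Of 11 genes of peptide processing and the secretory granule, Cort included, 0 passed limma's adjusted threshold under CCNY-WT and 0 under CCNY-shRNA, with 0 and 3 at an unadjusted p below 0.05. Over all genes tested, 6.83% under CCNY-WT and 18.6% under CCNY-shRNA had such a p, and the unadjusted counts of the lists are to be read against these shares. In CCNY-shRNA 8 were lower than under EGFP, with a median difference of -0.11. The convertase Pcsk1, which cleaves peptide precursors, had 31.4 and 35.3 FPKM under EGFP and 29.6 and 27.8 under CCNY-shRNA (limma adjusted p = 0.238), and the granule protein Chga 143 and 158 against 132 and 125 (limma adjusted p = 0.168). Cpe, the carboxypeptidase that trims the cleaved peptides and the most abundant of the list, had 727 and 816 FPKM under EGFP but 1026 and 655 in the CCNY-shRNA libraries, which lay on both sides of the control. The abundant granins Scg2 and Chgb differed by -0.04 and -0.18 (limma adjusted p = 0.768 and 0.194).

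Downstream of the receptors, 27 of 32 genes of Gi/o subunits, adenylyl cyclases, GIRK and calcium channels, receptor kinases, arrestins and RGS proteins could be tested. None passed the adjusted threshold under CCNY-WT or under CCNY-shRNA, with 3 of 27 in each at an unadjusted p below 0.05 (6.83% and 18.6% of all genes tested), and the median differences were 0.00 and 0.02. Gnao1, the main neuronal Gi/o alpha subunit, had 437 and 435 FPKM under EGFP, 402 and 387 under CCNY-WT, and 426 and 419 under CCNY-shRNA, and Gnb1, a beta subunit, 423 and 384 under EGFP against 436 and 430 under CCNY-shRNA. The beta subunit Gnb2 had 234 and 230 under EGFP and 267 and 280 under CCNY-shRNA (difference 0.24, limma adjusted p = 0.0829). The receptor kinase Grk5 had the largest difference of the list under CCNY-shRNA, 0.31 (limma adjusted p = 0.335).

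In the pathway that acts on the Sst promoter shown above, 12 of 13 genes of CREB, its coactivators and the cyclic AMP-dependent kinase were tested, and 0 passed in either condition, with 0 at an unadjusted p below 0.05 in both. The kinase subunits Prkar1b, Prkacb and Prkar1a were the most abundant, and their differences under CCNY-shRNA were 0.09, 0.04 and 0.10. Creb1 had 9.31 and 4.27 FPKM in the EGFP libraries, a spread wider than any difference between the groups. Crtc1, a CREB coactivator, had 40.7 and 36.7 under EGFP and 38.6 and 27.3 under CCNY-shRNA (limma adjusted p = 0.425).

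Genes of GABAergic neurons and of the Sst interneuron lineage were then set beside Sst. Of 22 tested, 2 fell under CCNY-shRNA and 0 rose, where 0.746% of all genes tested passed. At limma's unadjusted p below 0.05 there were 6 of the 22, against 18.6% of all genes tested. Of the 22, 19 were lower than under EGFP, with a median difference of -0.15 against 0 over all genes tested. A like shift was seen in other lists, including those of other cell types. Excitatory neuron markers had a median of -0.16 (4 of 7 lower), astrocyte markers -0.13 (5 of 7) and oligodendrocyte lineage genes -0.12 (4 of 5). The median was -0.03 for pan-neuronal markers, 0.02 for the genes downstream of the receptors and 0.01 for the CREB pathway. Of the tested genes of other interneuron classes 7 of 8 were lower (median -0.30), and of other Gi/o-coupled receptors 6 of 7 (median -0.15). Gad2, the second GABA-synthesizing enzyme, had 170 and 173 FPKM under EGFP, 176 and 181 under CCNY-WT, and 129 in each CCNY-shRNA library (difference -0.41, standard error 0.0494, limma adjusted p = 0.0226). It was also lower under CCNY-shRNA than under CCNY-WT (limma adjusted p = 0.0165), a comparison in which 0.216% of all genes tested passed. The call of Gad2 did not hold when any 1 of the 6 libraries was left out, and its adjusted p then ranged from 0.0767 to 0.316.

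Gad1, at 189 and 188 FPKM under EGFP and 183 and 187 under CCNY-shRNA, differed by -0.03 (limma adjusted p = 0.813), so the ratio of Gad2 to Gad1 was 0.901 and 0.920 under EGFP and 0.707 and 0.690 under CCNY-shRNA. Npy had 403 and 451 under EGFP and 377 and 427 under CCNY-shRNA (limma adjusted p = 0.592). Reln, the secreted protein of a further set of interneurons, had 33.0 and 35.2 under EGFP and 27.7 and 25.2 under CCNY-shRNA (limma adjusted p = 0.0915). Under CCNY-WT 0 of the 22 genes passed, with 0 at an unadjusted p below 0.05 and a median difference of 0.00. Of 7 tested astrocyte markers 5 were lower under CCNY-shRNA, 0 passed with 2 at an unadjusted p below 0.05 (18.6% of all genes tested), and the glutamate transporters Slc1a2 and Slc1a3 differed by -0.32 and -0.24 (limma adjusted p = 0.0768 and 0.183), while Aldoc and Gfap, the most abundant, differed by -0.11 and -0.13. The 7 summed to 535 and 574 FPKM under EGFP, 568 and 563 under CCNY-WT, and 468 and 540 under CCNY-shRNA. Their part in the levels of Sst and its receptors was not tested.

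**Figure D4:**
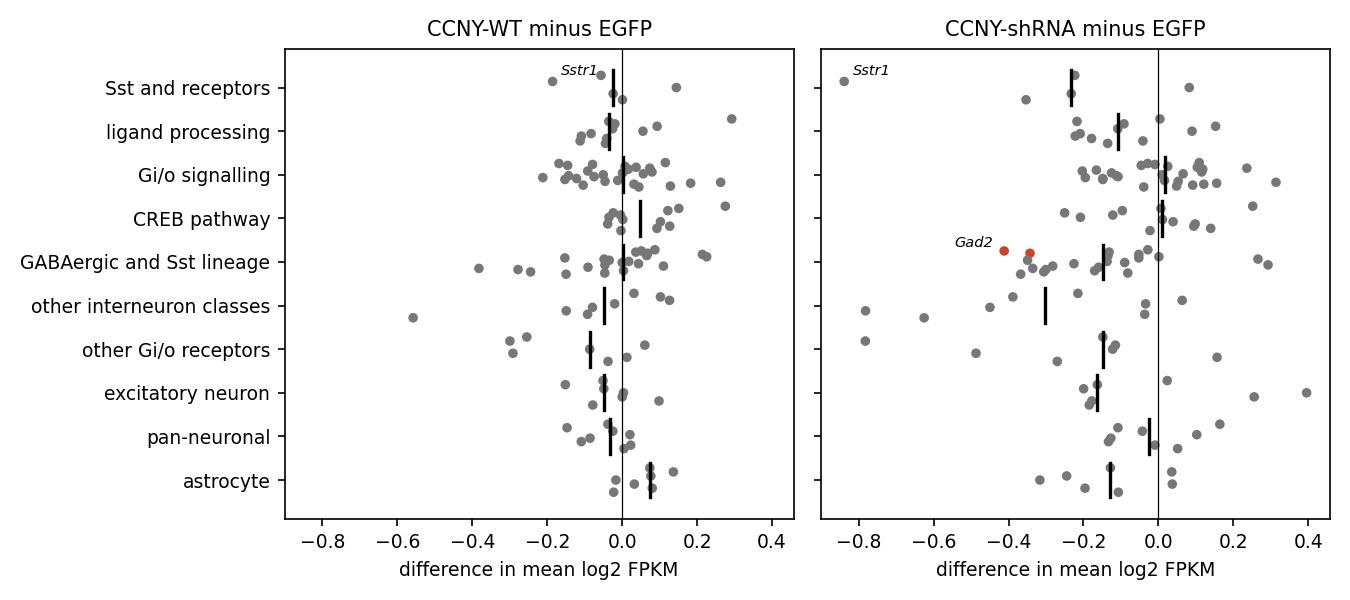
Difference in mean log2 FPKM from EGFP for each tested gene of 10 lists under CCNY-WT (left) and CCNY-shRNA (right), with 1 point per gene, a black bar at each list's median and red for genes past a limma adjusted p of 0.05 (not shown for Sst and its receptors). In CCNY-shRNA Sstr1 lies furthest to the left of its family at -0.84, and Gad2 is the labelled red point at -0.41.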

How the data were processed

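RNA-seq of 6 libraries was used, in 3 groups of 2. The authors mapped the reads to the rat build rn4 with TopHat2 2.0 and computed the deposited FPKM values, 1 per gene and library, with Cufflinks 2.2.1 (submitters' processing notes, which also name Bowtie2 2.1.0). The annotation is not given in the sources used here, nor is any scaling of 1 library to another. Here FPKM was floored to 1 and log2-transformed, and limma 3.58.1 in R 4.3.3 (lmFit, contrasts.fit, eBayes with a trend) was fitted over all 6 libraries for the 10188 genes with at least 1 FPKM in 2 or more libraries, with Benjamini-Hochberg adjustment over all of them. The model was tested on simulated data. Differences are between means of 2 log2 values, and p-values measure only the spread between these libraries.

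The family and the 12 other gene lists (150 genes, 143 found by symbol or older RefSeq synonym, 116 tested) were chosen with earlier results of these data known. Named are the family, Ccny, Cort, and per list the genes past the threshold, the 3 most abundant and the 2 with the largest difference under CCNY-shRNA, and the 5 genes most like Sst and like Sstr1. Slc32a1, Aif1, Cx3cr1 and Pvalb were named outside this rule. The values of some genes that the rule selects are not reported here. Alternatives covered the log offset, the filter, the scaling, the estimate of the spread, the samples fitted, a replicate block and leaving out each library. RefSeq promoters belong to GRCr8, not to the build of the files, and were used for sequence only. Python 3.11.15 with pandas 2.3.3, numpy 2.4.6 and matplotlib 3.10.9 made the tables and figures.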

Additional observations from a re-analysis of the deposited data

How the results depend on the processing

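The knockdown difference of Sstr1, the one that chose the family, kept its sign under all 15 alternatives. Both CCNY-shRNA values lay below both EGFP values, so leaving out a library could not have changed that sign. Its size is therefore given as a description. The difference was -0.75 with log2(FPKM + 1) in place of the floor and ranged from -0.94 to -0.74 with each library left out in turn. The median over Sst and its 4 measured receptors under CCNY-shRNA against EGFP was -0.30 after quantile normalization and -0.30 to -0.19 with a library left out, and that against CCNY-WT was -0.27 to -0.20. In CCNY-WT no member passed the test under any alternative. Small differences there changed sign: Sstr4 was -0.012 after quantile normalization and -0.065 to 0.067 with a library left out, Sstr2 -0.0099 to 0.30 and Sstr3 -0.085 to 0.037. The number of listed genes called under CCNY-shRNA was 0 without the filter on low values, 0 without the trend, 0 with only the 2 groups compared and 0 to 0 with any library left out, and at most 3 under any alternative. Of 15 alternatives the call of Gad2 held in 6. Over all genes the 76 calls under CCNY-shRNA ranged from 1 to 108 across the alternatives, with 2 without the filter, 1 without the trend, 1 with only the 2 groups and 1 to 7 with a library left out. In CCNY-WT the 1 call ranged from 0 to 3.

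With the replicate number as a block (replicate block), 1 listed gene, Gad2, and 39 genes in all passed under CCNY-shRNA. Deviations from the group mean correlated between same-numbered libraries at 0.137, 0.144 and -0.03, so the numbers are not taken to pair the libraries. Depth limits what can be said of Sstr5, since a value of 0 in FPKM gives no upper bound.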

Other observations

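Interneuron classes other than the Sst class were described by 8 tested genes, of which 0 passed limma's adjusted threshold in either condition, with 0 at an unadjusted p below 0.05 under CCNY-WT and 3 under CCNY-shRNA. Over all genes tested such a p was reached by 6.83% under CCNY-WT and 18.6% under CCNY-shRNA, and these shares are the background of the unadjusted counts given here. Of the 8, 7 were lower under CCNY-shRNA than under EGFP, with a median difference of -0.30. Cck, Kit and Calb2 were the most abundant, and their differences under CCNY-shRNA were -0.03, -0.04 and 0.06. Lamp5, a marker of neurogliaform cells, had 4.16 and 3.63 FPKM under EGFP and 1.61 and 3.17 under CCNY-shRNA (limma adjusted p = 0.216), and Sncg 0.985 and 2.70 against 0.803 and 1.14 (limma adjusted p = 0.468). Pvalb, the marker of fast-spiking cells, was at 1.46 FPKM or less in every library and listed at 0 in 3 of them.

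Among other Gi/o-coupled receptors, 7 of 12 could be tested and 0 passed in either condition, with 1 at an unadjusted p below 0.05 under CCNY-WT (6.83% of all genes tested) and 2 under CCNY-shRNA (18.6%). Cnr1, the cannabinoid receptor of interneuron terminals, had 252 and 258 FPKM under EGFP, 251 and 246 under CCNY-WT, and 208 and 215 under CCNY-shRNA (difference -0.27, limma adjusted p = 0.0630). After quantile normalization it passed. Npy1r and Mchr1 differed by -0.15 and 0.16, and Galr2 by -0.49. Oprm1, the mu opioid receptor, had 3.64 and 2.39 FPKM under EGFP and 1.93 and 1.52 under CCNY-shRNA (difference -0.78, limma adjusted p = 0.179).

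Excitatory neuron markers did not pass either, with 0 of 7 in both conditions and 0 and 3 at an unadjusted p below 0.05 (6.83% and 18.6% of all genes tested). Slc17a7, the vesicular glutamate transporter, differed by 0.02 under CCNY-shRNA, Camk2a by -0.18 and Neurod6 by -0.20, while the transcription factors Neurod2 and Tbr1 differed by 0.40 and 0.26 (limma adjusted p = 0.0819 and 0.501). Of the pan-neuronal markers Tubb3 differed by 0.16 and Syn1 by -0.13 under CCNY-shRNA, with 0 of 8 past the threshold and 2 at an unadjusted p below 0.05 (18.6% of all genes tested). Oligodendrocyte lineage genes included Olig1 and Mbp, both at 14.3 FPKM or less, with 0 of 5 past the threshold and 1 at an unadjusted p below 0.05 under CCNY-shRNA. Of microglial and vascular or meningeal markers, Cd68 and Dcn alone could be tested. Dcn had 13.2 to 17.0 FPKM, and Cd68, P2ry12, Tyrobp, Flt1 and Pdgfrb had 1.13 or less.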
